A study of Mus musculus with 8 samples.

Results

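Small leucine-rich proteoglycans are secreted proteins of the extracellular matrix, and 9 of their genes were followed here: Dcn, Bgn, Aspn, Lum, Fmod, Prelp, Omd, Ogn and Podn. They were measured by every probe set whose array annotation gives a single symbol, that of a member, which were 20 of the 45101 probe sets on the array, or 9 of 18193 genes named in this way. The samples were subcutaneous preadipocytes, fibroblast-like precursors of fat cells, isolated from day 2 newborn mice of C57BL/6 background and Dicer lox/lox genotype. In 4 Dicer knockout samples the cells had received an adenovirus for Cre recombinase and GFP (Ad5CMVCre-eGFP), and in 4 control samples an adenovirus for GFP alone (Ad5CMVeGFP), in both groups at 750 MOI with 4 µg/mL polybrene. Both viruses drive their genes from a CMV promoter, so that Cre is not limited to a cell type, and RNA was taken 4 days after infection. Both groups carry the floxed alleles and virus, and cells with normal Dicer that received Cre are not among the samples, so that Dicer loss and an action of Cre cannot be told apart.

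Each protein of the family folds into a curved stack of leucine-rich repeats that binds collagen fibrils, and most carry chondroitin, dermatan or keratan sulfate chains on the protein core. They set fibril diameter and spacing and hold growth factors such as TGF-beta and BMPs in the matrix. Class I holds decorin (Dcn), biglycan (Bgn) and asporin (Aspn), class II holds lumican (Lum), fibromodulin (Fmod), PRELP (Prelp) and osteomodulin (Omd), class III holds osteoglycin (Ogn), and podocan (Podn) belongs to class V. Decorin and lumican are abundant products of connective tissue fibroblasts. Dicer, the deleted enzyme, cuts microRNA precursors into the mature microRNAs that restrain messenger RNAs.

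Several members lie next to each other in the genome. In the RefSeq gene table of the mouse assembly GRCm38.p6, Dcn, Lum and the related keratocan gene Kera follow each other on chromosome 10 when protein-coding genes are counted, Prelp and Fmod do so on chromosome 1, and Aspn, Omd and Ogn on chromosome 13. Podn is on chromosome 4 and Bgn on chromosome X. Promoter sequences in the RefSeq table matched 7 of the 9 members. Those of the chromosome 13 neighbours are shown because the genes are adjacent and Aspn had the largest difference between the groups, and that of Fmod because it varied most between replicates. Each is the 250 bases before the annotated start, on the sense strand of the gene, from chr13:49544193-49544442 for Aspn, chr13:49582212-49582461 for Omd, chr13:49607765-49608014 for Ogn and chr1:134037004-134037253 for Fmod, all on the plus strand of GRCm38.p6. Capitals mark matches on either strand to the TATA box TATAAA, the CCAAT box CCAAT, the AP-1 motif TGANTCA or the TEAD motif CATTCC.
Aspn: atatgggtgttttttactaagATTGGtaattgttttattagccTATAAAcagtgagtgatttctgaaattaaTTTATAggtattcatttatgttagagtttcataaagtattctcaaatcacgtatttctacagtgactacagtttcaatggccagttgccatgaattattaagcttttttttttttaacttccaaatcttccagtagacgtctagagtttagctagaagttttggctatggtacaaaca
Omd: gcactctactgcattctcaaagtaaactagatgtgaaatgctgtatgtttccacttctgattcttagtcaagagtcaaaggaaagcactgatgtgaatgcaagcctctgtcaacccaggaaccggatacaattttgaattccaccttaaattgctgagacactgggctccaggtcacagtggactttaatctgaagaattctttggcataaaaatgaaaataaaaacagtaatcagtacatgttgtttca
Ogn: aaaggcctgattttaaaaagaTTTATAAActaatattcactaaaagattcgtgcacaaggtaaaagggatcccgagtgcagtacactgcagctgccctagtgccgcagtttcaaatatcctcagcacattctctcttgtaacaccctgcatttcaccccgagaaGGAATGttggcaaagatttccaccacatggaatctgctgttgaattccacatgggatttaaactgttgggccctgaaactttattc
Fmod: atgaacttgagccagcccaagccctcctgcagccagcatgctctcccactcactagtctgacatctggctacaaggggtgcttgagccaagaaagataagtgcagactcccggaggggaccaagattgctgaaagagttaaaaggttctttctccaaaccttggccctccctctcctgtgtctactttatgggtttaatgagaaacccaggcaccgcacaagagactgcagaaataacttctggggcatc
The TATA box letters were in the window of Aspn, where they lie 207 to 202 bases before the start, and again on the other strand, 178 to 173 bases before it. Ogn held them 227 to 222 bases before the start, overlapping a match on the other strand at 229 to 224 bases, and 12.4% of the 32851 promoter windows of this length hold them. Aspn held a CCAAT box on the other strand (33.8% of windows) and Ogn a TEAD motif on the other strand (12.6% of windows). The windows of Omd and Fmod held none of the 4 motifs, and the AP-1 motif, present in 6.75% of windows, was in none of these 4. The bases G and C made up 30.0% of the Aspn window, 38.4% of that of Omd, 42.0% of that of Ogn and 51.2% of that of Fmod.

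Each array gave a linear signal per probe set, with a median between 321.1 and 418.9 on the 8 arrays. Signal depends on the probes, so no gene's level is set against another's. Of the 20 member probe sets, 17 were among the 27026 bright enough to be tested, and 3 were not (1 each of Dcn, Fmod and Prelp). Differences are log2 values of knockout minus control after 73.1, the 20th percentile of all signals, was added to each signal, which makes the differences of dim probe sets smaller. They were tested with limma, adjusted over all tested probe sets, at a threshold of 0.05. Same-numbered arrays of both groups varied alike, so a second fit with a term for each replicate number, called the paired fit, stands beside the unpaired one. The label of the cells was set against markers. Of 9 preadipocyte and stromal markers on the array 8 were tested, and the summed signal of all 9 was 195751 to 279276 on knockout and 215687 to 289196 on control arrays. Vim (mean 85980 in knockout, 81000 in control) and Col1a1 (61870 and 61390) weigh most in this sum. Pecam1 and Cdh5 of endothelium, Ptprc and Itgam of leukocytes, Krt5, Krt14 and Cdh1 of epithelium, Ibsp of bone and Adipoq, Lep and Cidec of adipocytes were below the limit for testing, whereas other markers of these cell types, such as Kdr, Csf1r, Cd68, Epcam and Alpl, were above it. Also above it were 3 of 3 tendon, 4 of 5 cartilage, 3 of 4 pericyte and smooth muscle and 2 of 2 Schwann and neural markers on the array. Fabp4, a fatty acid binding protein and the only adipocyte marker above the limit, read 1877.4, 5961.4, 5952 and 6206.2 on knockout arrays 1 to 4, against 2079.7, 3941.2, 3057.2 and 3493.4 on control arrays 1 to 4. It was higher in 3 of 4 pairs (log2 difference 0.55, limma paired unadjusted p = 0.00338, paired adjusted p = 0.251), with knockout arrays 2, 3 and 4 above every control array. The 4 adipocyte markers on the array summed to 2041 to 6450 on knockout and 2237 to 4145 on control arrays, and their part in the results was not tested. Of all these markers only Dlk1 passed between the groups, as lower in the knockout, and only by the paired model (adjusted p = 0.0436 with limma). The 4 skeletal muscle markers summed to 1526 to 2203 on knockout and 988 to 1219 on control arrays, without overlap, and the part of such cells in the results was not tested. The odd-numbered arrays of both groups read 5905.9 to 14007.2 for the 5′ end of 18S ribosomal RNA, and the even-numbered arrays 30583.9 to 43029.9. This signal was also higher in the knockout array of each pair, at 14007.2, 42617.5, 9524.9 and 43029.9 on knockout arrays 1 to 4, against 11355.6, 30583.9, 5905.9 and 36375.2 on control arrays 1 to 4, and its part in the results was not tested.

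None of the 9 genes passed the threshold between knockout and control. In the unpaired fit 0 of 17 member probe sets passed, against 0.0037% of all tested, and 1 had an unadjusted limma p under 0.05, against 3.77% of all tested. In the paired fit 0 of 17 passed, against 0.0481% of all tested, and 3 had an unadjusted p under 0.05, against 9.14% of all tested. These 3 came from 2 genes, being 1 probe set of Dcn and both of Aspn. The knockout and control values overlapped in 17 of 17, whereas 2.46% of all tested did not overlap. Of the 9 genes, each by its brightest tested probe set, 5 had a log2 difference above 0 and 4 below, with a median of 0.01, and the median over all 13259 tested genes was 0. Aspn had the largest difference, at 1.52-fold higher in the knockout, and Dcn the largest in the opposite direction, at 0.76-fold. The other 7 genes were between 0.93-fold and 1.17-fold.

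**Figure D1:**
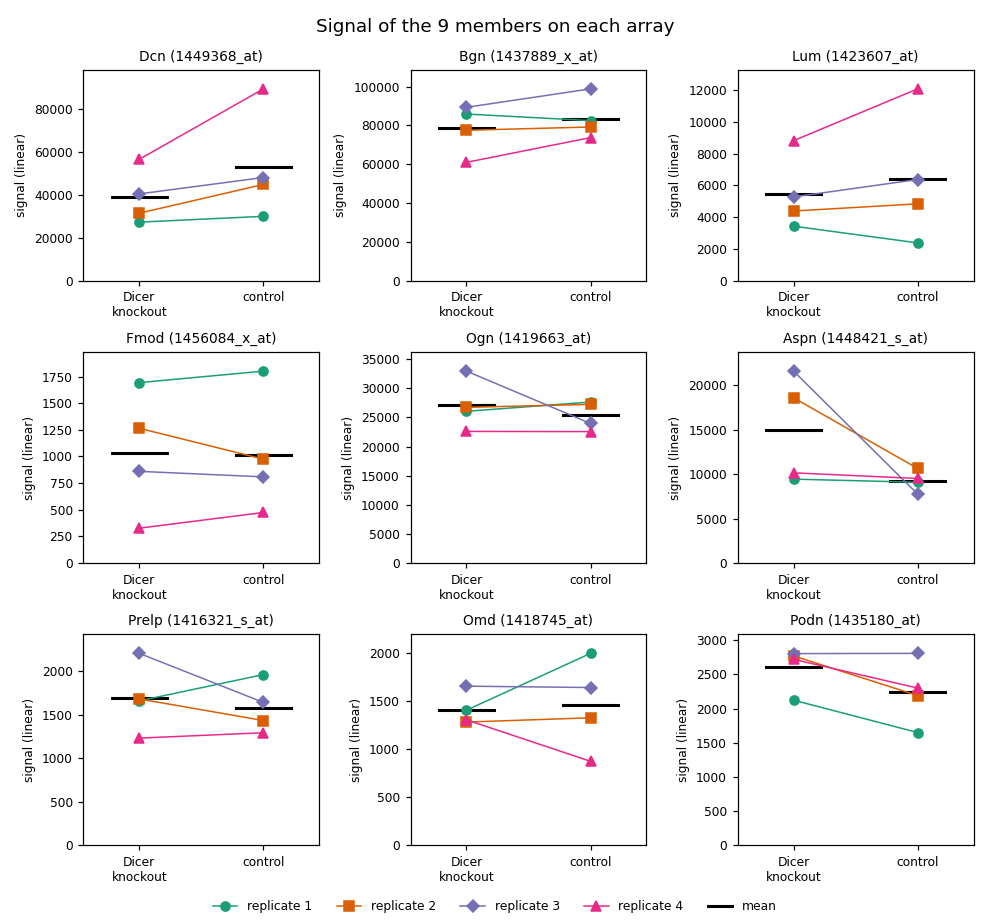
Signal of the brightest tested probe set of each of the 9 genes (linear scale, from 0), with the 4 Dicer knockout arrays at the left and the 4 control arrays at the right of each panel. Lines join arrays with the same replicate number and black bars are group means. Knockout and control ranges overlap for all 9 genes. Replicate 4 is the highest of its group for Dcn and Lum and the lowest for Fmod, Bgn, Ogn and Prelp.

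Decorin, a class I member that coats collagen fibrils and binds TGF-beta, was lower in the knockout array of every same-numbered pair. Its probe set 1449368_at read 27333.1, 31514, 40487.8 and 56623.3 on knockout arrays 1 to 4, against 30043.2, 44887.8, 48130.9 and 89428.5 on control arrays 1 to 4. The array numbered 4 was the highest and that numbered 1 the lowest in both groups, and the groups overlapped. The pairs differed by -0.14, -0.51, -0.25 and -0.66 for numbers 1 to 4, with a mean log2 difference of -0.39. The unpaired fit gave a 95% interval of -1.02 to 0.24 (limma adjusted p = 0.999). The paired fit gave an interval of -0.58 to -0.19, an unadjusted p of 0.001 and a limma adjusted p of 0.159, which misses the threshold. Among all tested probe sets 16.9% had the same sign in all 4 pairs. The mean difference was -0.193 over odd and -0.584 over even replicate numbers, and leaving out control array 4 gave -0.1, control array 1 -0.624, knockout array 1 -0.237 and knockout array 4 -0.586. In RNA from a whole culture, fewer cells of a type and less RNA per cell cannot be told apart. The second Dcn probe set, 1441506_at, was too dim to test, at 131.9 to 211.6 in knockout and 121.8 to 288.8 in control samples.

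Biglycan, the X-linked relative of decorin that can also act on Toll-like receptors once released, differed little between the groups. The probe set 1437889_x_at read 85869.9, 77506, 89320.4 and 60986.9 on knockout arrays 1 to 4, against 82470.8, 79197.2, 98827.3 and 73726.1 on control arrays 1 to 4. Array 3 was the highest and array 4 the lowest of each group. The log2 difference was -0.10, with a 95% interval of -0.38 to 0.19 unpaired and -0.26 to 0.07 paired. The other Bgn probe sets, 1416405_at and 1448323_a_at, gave -0.07 and -0.09, so the 3 probe sets were alike in direction and size. Without knockout array 4 the sign of 1437889_x_at turned (0.0177).

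Asporin, a class I member that binds collagen and TGF-beta and lacks the attachment site for a glycosaminoglycan chain, had the only member probe set with an unadjusted p under 0.05 in the unpaired fit. Its probe set 1448421_s_at read 9429.2, 18567.5, 21561.4 and 10133.9 on knockout arrays 1 to 4, against 9075.9, 10629.6, 7746 and 9501.1 on control arrays 1 to 4. Knockout arrays 2 and 3 stood above every control array, whereas knockout arrays 1 and 4 lay within the control range. The log2 difference was 0.60 (SE 0.24, 95% interval 0.09 to 1.12, unadjusted p = 0.0256, limma adjusted p = 0.999), and the exact two-sided permutation test over arrays gave p = 0.171, where 0.0286 is the smallest possible. In the paired fit the SE was 0.18, the interval 0.20 to 1.01 and the limma adjusted p = 0.32. The pair differences were 0.05, 0.80, 1.47 and 0.09 for numbers 1 to 4, so nearly all of the mean came from pairs 2 and 3. Without both arrays numbered 3 the paired fit gave 0.316, and without knockout array 3 the unpaired fit gave 0.397. The odd-numbered arrays gave 0.761 and the even-numbered arrays 0.446, so both were above 0. The second Aspn probe set, 1416652_at, read 3614.8, 7621.4, 6479.5 and 3965 on knockout arrays 1 to 4, against 3540.6, 4091.6, 2574.8 and 5122.7 on control arrays 1 to 4. It was again high on knockout arrays 2 and 3, and its log2 difference was 0.46 (SE 0.25, limma adjusted p = 0.999), although pair 4 went the other way, at -0.36.

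**Figure D2:**
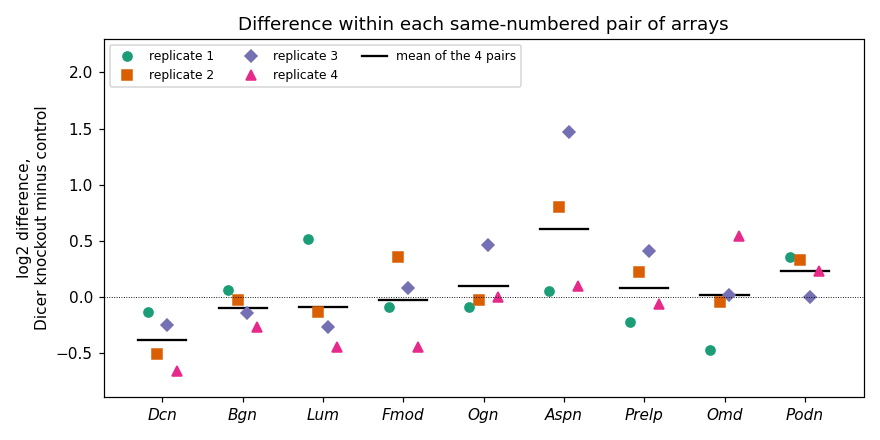
Log2 difference (Dicer knockout minus control) within each same-numbered pair of arrays for the brightest tested probe set of the 9 genes. Symbols are the 4 pairs and bars their mean. Dcn is below 0 in all 4 pairs, and Aspn is near 0 in pairs 1 and 4 and at 0.80 and 1.47 in pairs 2 and 3.

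Lumican, a class II keratan sulfate proteoglycan that regulates fibril assembly, varied far more between replicate numbers than between groups. Its probe set 1423607_at read 3436.2, 4390.8, 5278.7 and 8817.9 on knockout arrays 1 to 4, against 2386, 4844.4, 6375 and 12078.9 on control arrays 1 to 4. The array numbered 4 was the highest and that numbered 1 the lowest in both groups, as for Dcn. The log2 difference between groups was -0.09, with a 95% interval of -0.96 to 0.79 unpaired and -0.38 to 0.20 paired. Its sign turned without control array 4 (0.29).

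Fibromodulin, a class II member of tendon and other dense connective tissue that binds the same collagen region as lumican, had its lowest values on the arrays numbered 4, where Lum was highest. Its brightest tested probe set, 1456084_x_at, read 1692.7, 1264.1, 860.3 and 327.1 on knockout arrays 1 to 4, against 1800.5, 974.7, 808.5 and 474.6 on control arrays 1 to 4. The log2 difference between groups was -0.03, with a 95% interval of -0.98 to 0.93 unpaired and -0.39 to 0.34 paired. The gene has 6 probe sets, of which 5 were tested, and in 4 of these the name ends in x_at, which marks probes that may also match other transcripts. The only one without this mark, 1415939_at, read 1351.9, 1212.2, 545.5 and 294.4 on knockout arrays 1 to 4, against 1257.4, 718.8, 577.7 and 239.1 on control arrays 1 to 4. Its log2 difference was 0.24 (95% interval -0.78 to 1.26). The other tested probe sets gave 0.13 (1437718_x_at), 0.07 (1437324_x_at) and -0.43 (1437685_x_at), so the Fmod probe sets disagreed in the sign of the group difference. They were alike in being lowest on the array numbered 4 of both groups.

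PRELP, a class II member that links basement membranes to collagen, did not separate the groups. Its tested probe set 1416321_s_at read 1659.7, 1681.5, 2205.1 and 1231.6 on knockout arrays 1 to 4, against 1961.6, 1433.7, 1641.5 and 1293.7 on control arrays 1 to 4. The log2 difference was 0.08 (95% interval -0.32 to 0.49 unpaired, -0.21 to 0.37 paired). Its other probe set, 1416322_at, was too dim to test. Osteomodulin, a class II member first known from bone, had a log2 difference of 0.01 (95% interval -0.46 to 0.48 unpaired, -0.34 to 0.35 paired). Its probe set 1418745_at read 1405.9, 1282.2, 1655.8 and 1305.4 on knockout arrays 1 to 4, against 1996.8, 1326.7, 1641.6 and 873.8 on control arrays 1 to 4. The knockout arrays thus lay inside the range of the controls.

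Osteoglycin, the class III member, which modulates fibril growth, had a log2 difference of 0.09 (95% interval -0.18 to 0.35 unpaired, -0.11 to 0.29 paired). Its brightest probe set, 1419663_at, read 26036.5, 26721.7, 32933.4 and 22585.9 on knockout arrays 1 to 4, against 27631.8, 27227.8, 23957.6 and 22558.4 on control arrays 1 to 4. Knockout array 3 stood above all others, as it did for Aspn (1448421_s_at), its near neighbour on chromosome 13, and for Prelp on chromosome 1. Omd, which lies between Aspn and Ogn, gave 0.01 in pair 3. The second Aspn probe set, 1416652_at, was instead highest on knockout array 2 (7621.4, against 6479.5 on knockout array 3). The second Ogn probe set, 1419662_at, gave a log2 difference of 0.11 and had its largest pair difference, 0.71, in pair 3 too. Podocan, which has been tied to smooth muscle growth, read 2123.9, 2771.9, 2805.5 and 2721.1 on knockout arrays 1 to 4, against 1650.6, 2191.7, 2808.6 and 2301.4 on control arrays 1 to 4 (1435180_at). Array 1 was the lowest of each group. Its log2 difference was 0.23 (95% interval -0.13 to 0.59 unpaired, limma paired adjusted p = 0.557), with 3 of 4 pairs higher. Leaving out control array 1 gave 0.095, and leaving out control array 3 gave 0.342.

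**Figure D3:**
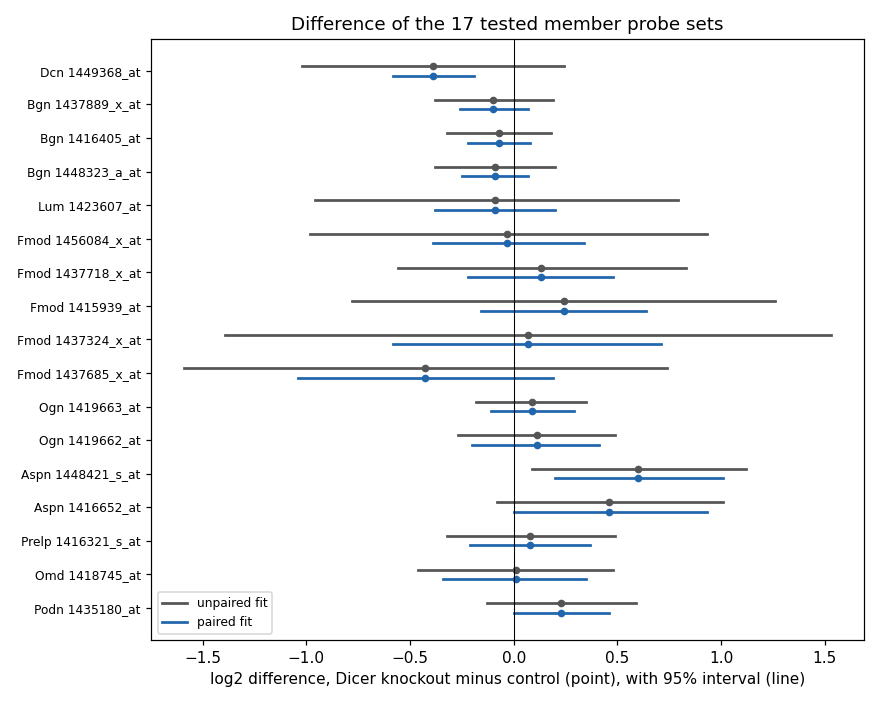
Log2 difference (Dicer knockout minus control) of each of the 17 tested member probe sets, with its 95% interval in the unpaired fit (grey) and the paired fit (blue). In the unpaired fit every interval except that of Aspn 1448421_s_at spans 0, and the intervals of Dcn, Lum and Fmod are much narrower in the paired fit.

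Dcn, Lum and Fmod differed more between replicate numbers than between knockout and control. This comparison was chosen after the values were seen, and the meaning of a number is not stated in the labels. In the paired fit, a moderated F test over the 4 replicate numbers called 8 of 17 member probe sets (limma adjusted p under 0.05), against 8.3% of all tested. They were 1 of Dcn, 1 of Lum, all 5 tested of Fmod and 1 of Bgn. By the brightest tested probe set 3 of 9 genes passed, Dcn (adjusted p = 0.000685), Lum (0.00106) and Fmod (0.00247), against 9.37% of all tested genes. The means of the 2 arrays of a number spanned 2.48-fold for Dcn, 3.54-fold for Lum and 3.89-fold for Fmod, which are 1.31, 1.82 and 1.96 on the log2 scale, and the median span over all tested genes was 0.42. For the other 6 genes the span was 0.31 to 0.61. Bgn was called by 1448323_a_at (adjusted p = 0.0401) but not by 1437889_x_at (0.0549) or 1416405_at (0.0749). The calls depended on how the variance was modelled. Without the mean-variance trend the F test called 0 of 17 member probe sets and 0 of all tested, with adjusted p = 0.11 for Dcn, 0.111 for Lum and 0.0894 for Fmod. Without the arrays numbered 4 it called 2 of 17, with adjusted p = 0.0433 for Dcn, 0.0375 for Lum and 0.058 for Fmod.

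Dcn and Lum, neighbours on chromosome 10, varied together over the 8 arrays (Pearson r = 0.93, Spearman rho = 0.95), and Fmod ran opposite to both, with r = -0.87 against Dcn and r = -0.93 against Lum. With each group centred on its mean, r was 0.98 between Dcn and Lum, -0.94 between Dcn and Fmod and -0.93 between Lum and Fmod. Leaving out the 2 arrays farthest from the median of the first gene gave 0.90 for Dcn and Lum, -0.91 for Dcn and Fmod and -0.98 for Lum and Fmod. These are 3 of 36 member pairs, chosen after their values were seen, and same-numbered arrays are not independent, so no p is given. Of the other member pairs, Ogn and Prelp, on different chromosomes, had the highest r, at 0.86 (0.67 without the 2 farthest arrays). Prelp and Omd, also on different chromosomes, came next, at 0.74 (0.90 without the 2 farthest arrays). The neighbours Fmod and Prelp had r = 0.67 (0.36 without the 2 farthest arrays). On chromosome 13, r was 0.03 for Aspn and Omd. It was 0.56 for Ogn and Omd (0.26 without the 2 farthest arrays) and 0.69 for Ogn and Aspn (0.31 without them).

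**Figure D4:**
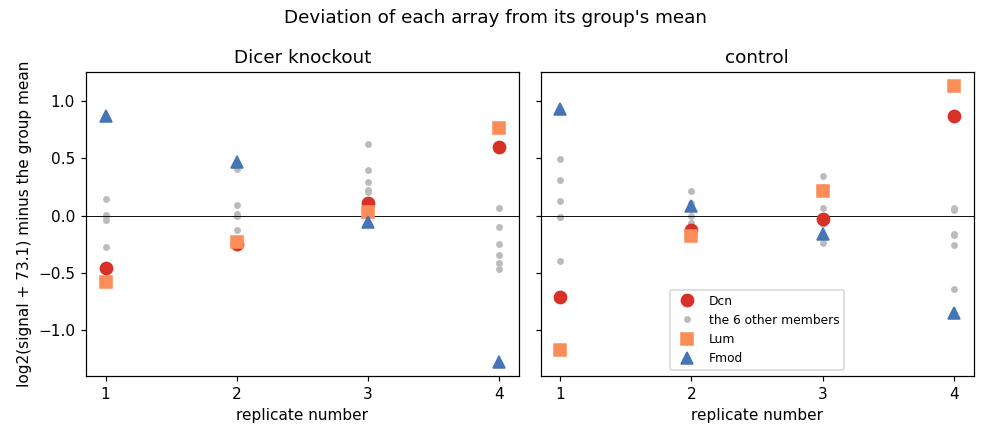
Deviation of each array from its group's mean on the log2(signal + 73.1) scale for the brightest tested probe set of the 9 genes, by replicate number, with Dicer knockout at the left and control at the right. Dcn and Lum are highest and Fmod lowest on the array numbered 4 of both groups, with the reverse on the arrays numbered 1.

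The genes with the profile most like that of a member over the 8 arrays were taken from all 13258 other tested genes. For Dcn they were Reep5, Cdk4 and Bola1 (r = 0.975, 0.972 and 0.968), and for Lum they were Fth1, Cmc2 and Lamp1 (r = 0.991, 0.984 and 0.983). For Fmod they were Ebf3, Usp53 and Swap70 (r = 0.986, 0.986 and 0.984). For Aspn they were Kcmf1, Naa30 and Galnt7 (r = 0.956, 0.95 and 0.941), and the last of these had a Spearman rho of only 0.571. No member was among the 3 closest genes of another member. Over 8 arrays, the highest of so many r values were high for every member, at 0.926 to 0.991. A high r here therefore does not mark a gene as a partner, and no p is given.

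Genes that work with the family were taken as 6 lists, with 72 tested genes in all. None of the 72 passed between knockout and control, against 0% of all tested genes in the unpaired and 0.0754% in the paired limma fit, and 2 had an unadjusted p under 0.05 in the unpaired fit, against 3.93% of all tested genes. Among the other family members and relatives, 2 of 7 on the array were tested. Keratocan (Kera), a class II member of the cornea and the next gene after Lum, read 23.9, 145.3, 135.9 and 797.6 on knockout arrays 1 to 4, against 274.7, 296, 360.7 and 1601.2 on control arrays 1 to 4 (1418063_at). It was lower in the knockout array of all 4 pairs. Like Dcn and Lum, it was highest on the array numbered 4 of both groups. Its log2 difference was -1.15 (SE 0.63, limma adjusted p = 0.999, paired adjusted p = 0.175). This difference rests in part on dim readings. Knockout array 1 read below the value added to each signal. Knockout arrays 2 and 3 read within the knockout range of the Dcn probe set that was too dim to test. How far the size of the Kera difference depends on the added value was not tested. Nyx, the other tested relative, gave 0.20 (SE 0.25).

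Of the 19 tested enzymes that build chondroitin and dermatan sulfate chains, 10 had a difference above 0 and 9 below, with a median of 0.02 and 0 past the threshold in either fit. Chsy1, which extends the chondroitin chain, read 7446 ± 913 in knockout and 9030 ± 1100 in control samples (SD, n = 4 each) and was lower in 4 of 4 pairs (log2 difference -0.28, SE 0.13, limma adjusted p = 0.999, paired adjusted p = 0.281). Chst12, a chondroitin sulfotransferase, gave 0.33 (SE 0.17). The 11 tested enzymes of keratan sulfate synthesis and tyrosine sulfation had a median of -0.05, with 5 above 0 and 6 below, and those with the smallest p were Chst2 at -0.22 (SE 0.20) and B3gnt7 at -0.21 (SE 0.21). The summed signal of the keratan sulfate list was 32565 to 34910 on knockout and 31076 to 39125 on control arrays.

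The 16 tested collagens and fibril modifiers had a median log2 difference of -0.02, with 6 above 0 and 10 below. Col5a1, a collagen that starts fibrils, gave 0.29 (SE 0.17) and Bmp1, the protease that matures procollagen and some family members, gave -0.17 (SE 0.15). Of the 15 tested receptors and ligands bound by the family, 5 were above 0 and 10 below, with Tgfb2 at -0.26 (SE 0.16) and Ccn4, a matricellular protein, at 0.30 (SE 0.23). Of the 9 tested proteases that can cut these proteins, 2 were above 0 and 7 below, with a median of -0.24. Htra1, a secreted serine protease, read 10246.5, 7138.4, 9529 and 6948.5 on knockout arrays 1 to 4, against 14431.9, 12284, 15256.3 and 7916.2 on control arrays 1 to 4. It was lower in 4 of 4 pairs (log2 difference -0.53, SE 0.20, limma adjusted p = 0.999, paired adjusted p = 0.103). Adamts4, which cleaves large proteoglycans, gave -0.24 (SE 0.13). The F test over replicate numbers called 22 of the 72 genes, against 9.37% of all tested genes. Among them were 8 of the 16 collagens and modifiers, 6 of the 9 proteases and 3 of the 15 receptors and ligands. The rest were 3 of the 19 chondroitin and dermatan sulfate enzymes, 1 of the 11 keratan sulfate and tyrosine sulfation enzymes and 1 of the 2 relatives. Without the mean-variance trend the F test called 0 of all tested probe sets.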

How the data were processed

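The 8 samples, 4 Dicer knockout and 4 control, were each measured on 1 Affymetrix array. The authors deposited 1 intensity (signal, on a linear scale) for each probe set and array. Per the submitters' processing notes, GCOS 1.3 and MAS5 were used. Their 2% trimmed mean was 1500 on every array, so the authors had scaled the deposited signals per array. Further normalization steps are not given in the sources used. The number of arrays limits the precision, and the labels number biological replicates 1 to 4 without naming animals or cultures. The p-values therefore reflect only the spread among these samples, of which an unknown part may be technical.

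Values were taken as log2(signal + 73.1). After removal of 64 array controls, the brightest 60% (27026 probe sets, by mean log2 value) entered the tests, made with R 4.3.3 and limma 3.58.1 (lmFit, eBayes with trend, two-sided, Benjamini-Hochberg). The unpaired fit is the main one. Deviations of same-numbered arrays from their group means correlated at 0.189 to 0.372, and those of other arrays at -0.347 to 0.149, so the numbers were taken as pairs, from the labels and this check. Gene names come from the platform annotation, and the brightest tested probe set stands for a gene. All 9 members were named. From each list of partner genes, those past the threshold or else the 2 with the smallest unpaired p were named, and Kera, Htra1 and Chsy1 are among these. The 3 genes with the highest Pearson r were found for each member, and they are named for Dcn, Lum, Fmod and Aspn only. Members and lists were chosen with earlier results of these data known. Promoter sequences are from RefSeq. The fits were tested on simulated data, and Python 3.11.15 with matplotlib 3.10.9 made the figures.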

Additional observations from a re-analysis of the deposited data

Results flagged for a closer look

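Within groups of 4 arrays, an array that stood far from the other 3 on the log2 scale was looked for in the 17 tested member probe sets. Of 34 groups in all 3 were found, where chance gives about 1 in 20 for a single group. Probe sets of the same gene share arrays, so the groups are not independent and the count is no test. The Fmod probe set 1437324_x_at read 46.4 on knockout array 4, far below the other knockout arrays. The Fmod probe set 1437685_x_at read 352 on control array 4, far below the other controls. Podn (1435180_at) read 2123.9 on knockout array 1, below the other knockout arrays. Control array 4 was likewise the lowest control for 1437324_x_at, and control array 1 the lowest control for Podn.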

How the results depend on the processing

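The count of 0 member probe sets past the threshold between knockout and control held under all 24 alternatives. Over all probe sets the count was 1, and it was 13 with the replicate block, 0 without a filter on low values, after median centring, without the mean-variance trend and in the odd-numbered or even-numbered arrays alone, and 0 to 80 with arrays or pairs left out. The block changed no call for a member. The 9 member differences were recomputed 225 times, with 202 in the same direction, 23 reversed and 0 past the threshold. Aspn, Dcn and Podn were never reversed. The cause of the reversals was not tested. With arrays or pairs left out Bgn ranged from -0.166 to 0.0177, Lum from -0.478 to 0.29, Fmod from -0.315 to 0.399, Ogn from -0.0369 to 0.169, Prelp from -0.0486 to 0.219 and Omd from -0.207 to 0.169. With a pair left out in the block fit, Lum was 0.0349, Fmod 0.116 and Omd -0.173 without pair 4, and Prelp -0.0264 without pair 3. Ogn was -0.0117 without knockout array 3. Lum was 0.122 and Omd -0.237 in the odd-numbered arrays, Ogn -0.0126 in the even-numbered arrays, Fmod 0.0719 with array weights, and Omd -0.0206 with median centring and -4.47e-05 with a pseudocount of 234.4. The F test over replicate numbers called 2243 probe sets, 8 of them members. It called 1169 with no filter, 915 with median centring and 0, with 0 members, without the trend, 761 without pair 1, and 624 to 2358, with 2 to 8 members, over all 4 pairs left out in turn.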
